A study of Saccharomyces pastorianus with 12 samples.

Results

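Transcript levels of lager brewing yeast on the last days of a production-scale fermentation were set against those of the yeast at its start. The final-days yeast was the pair of samples labelled 240 and 264 h, and the pitching yeast was the sample labelled 0 h. Together they were 3 of the 12 samples of the series, chosen by their labelled times, and the comparison ran over 5490 named genes. The organism was Saccharomyces pastorianus (synonym Saccharomyces carlsbergensis), a hybrid that carries one parental genome from S. cerevisiae. The probes carry S. cerevisiae gene names, and signal from the copies of the other parent was not resolved. All samples were total RNA of this yeast, with 1 array at each time. In such bulk RNA, fewer cells in a given state and less RNA per cell cannot be told apart. The labels named no strain, treatment or storage history, and did not say whether all times came from the same vessel. With 1 array at 0 h there was no replicate of the pitching yeast. The differences below are therefore sizes without a replicate test, since 2 arrays against 1 allow no exact permutation p below 1/3. The 2 final arrays were different times, so the spread between them holds array noise and any change between those times.

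Pitching is the addition of yeast to aerated wort. In brewing practice the pitching yeast is usually cropped from an earlier fermentation and kept cold until use, and it draws on stored glycogen to make sterols while oxygen is at hand. Through the fermentation the yeast takes up glucose, fructose, maltose and maltotriose and forms ethanol without oxygen. By the last days the sugars are largely used, growth has ceased and much of the yeast has settled.

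A level below is a gene's log2 intensity minus the median over genes of its array, and a difference is the level at a final time minus the level at 0 h. Array medians over all probes were 1672 intensity units at 240 h and 2579.5 at 264 h, against 2066 at 0 h. The 240 h array had the narrowest signal of all 12. Its 95th percentile was 4.61 times its 5th, against 7.06 times at 264 h and 7.55 times at 0 h. Across genes the Spearman correlation of the final arrays with each other was 0.162, lower than that of either with the pitching yeast (0.271 for 240 h and 0.541 for 264 h). The 240 h array was closest to the 96 h array (0.582), the 264 h array to the 120 h array (0.649) and the 0 h array to the 168 h array (0.732). These correlations describe arrays of 1 platform that share their probes, and carry no error. The 240 and 264 h arrays were at least 1 log2 unit apart for 1626 genes, 29.6% of those compared. A gene was therefore counted as higher or lower when it lay at least 1 log2 unit (2-fold) from 0 h in the same direction at both final times. Values were also compared after quantile normalization, which gives all 12 arrays the same spread. The labelled yeast was checked by genes that are usually bright in fermenting yeast. Glycolysis genes had median levels of 0.43 at 240 h and 0.92 at 264 h, against 1.56 at 0 h, and ACT1, the actin gene, stood at 0.64 at 240 h and 0.73 at 264 h, against 1.37 at 0 h. Cytosolic ribosomal protein genes had median levels of -0.03 at 240 h and 0.19 at 264 h, against 0.51 at 0 h, so at 240 h this list did not stand above the median gene.

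The final-days yeast was lower than the pitching yeast for 226 genes (4.12%) and higher for 131 (2.39%). After quantile normalization the counts were 301 lower (5.48%) and 216 higher (3.93%). In both normalizations together 170 genes were lower (3.1%), while all 131 higher genes were higher in both (2.39%). At 4-fold, 18 genes were lower and 8 higher. Opposite differences at the 2 final times were fewer: 18 were 2-fold higher at 240 h and 2-fold lower at 264 h, and 32 the other way round. Both differences share the 0 h array, so any error in that array moves them the same way. Of the 226 lower genes 112 (49.6%) belonged to at least 1 of 46 gene lists of known function, and of the 131 higher genes 16 (12.2%), beside 24.8% of all genes. The lists were chosen with earlier results of these data known, so these shares are a description only. All list counts below stand beside 4.12% lower and 2.39% higher over all genes. Of all 5490 genes 2862 had a mean difference below 0, and 34.3% were below 0 h at both final times.

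**Figure D1:**
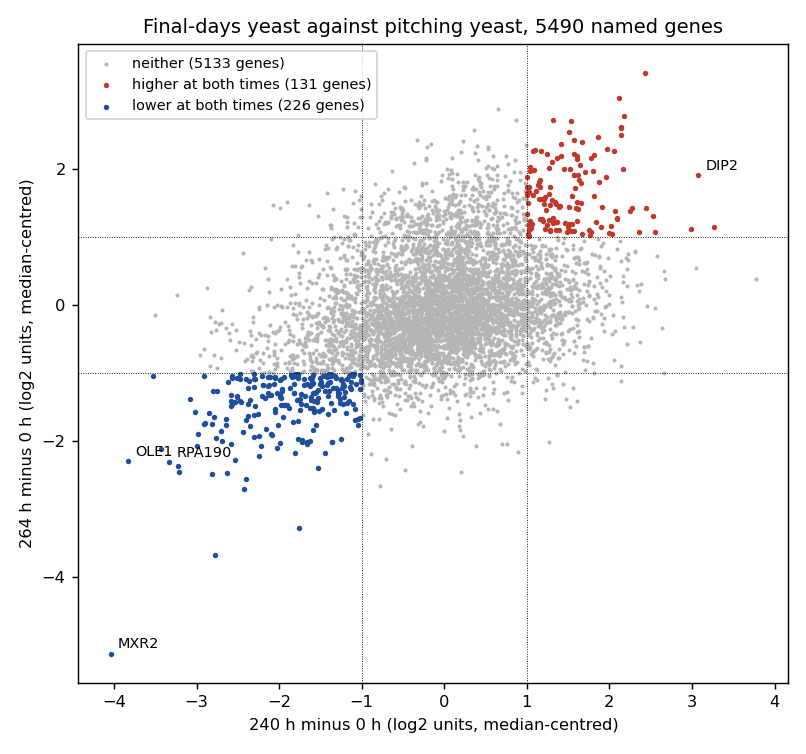
Each point is a named gene, with its 240 h minus 0 h difference on the x axis and its 264 h minus 0 h difference on the y axis (log2 units, median-centred). Red points are the 131 genes at least 1 log2 unit higher at both times, blue points the 226 lower ones, and dotted lines mark 1 log2 unit, with MXR2 far below the rest.

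The largest difference in either direction was in MXR2, the mitochondrial methionine sulfoxide reductase that repairs oxidized methionine. Its intensity was 2748 at 240 h and 2012 at 264 h, against 56914 at 0 h. In levels this was 0.71 at 240 h and -0.37 at 264 h, against 4.75 at 0 h, a mean difference of -4.58 (24.0-fold lower; -4.48 after quantile normalization). On the 9 other arrays its level lay between 0.13 and 1.27, so the 0 h array alone stood high.

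RPA190, the largest subunit of RNA polymerase I, which makes ribosomal RNA, was at 0.51 at 240 h and 1.53 at 264 h, against 3.84 at 0 h (7.06-fold lower). It was also high at 192 h, where its level was 2.71. IZH1, a membrane protein tied to zinc balance, was at 0.67 at 240 h and 1.98 at 264 h, against 4.09 at 0 h (6.80-fold lower). The 9 other arrays held it between 2.79 and 5.87, above both final arrays. ALG13, part of the enzyme that adds the second sugar in protein N-glycosylation, was at 0.82 at 240 h and 1.15 at 264 h, against 3.63 at 0 h. Its 9 other levels ran from 1.08 to 3.74.

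GSY2, the main glycogen synthase, was at -0.06 at 240 h and 1.11 at 264 h, against 2.84 at 0 h (4.97-fold lower). FIG2, a cell wall adhesin of mating cells, was at -0.04 at 240 h and 0.64 at 264 h, against 2.65 at 0 h. Its highest level on the 9 other arrays was 0.75, so here too the pitching yeast stood apart. CSM1, a chromosome segregation protein, was 5.90-fold lower and COS4, of a family of similar subtelomeric genes, 5.44-fold lower. The remaining 4 of these 12 genes, which are the largest among genes lower in both normalizations and not dim on any of the 3 arrays, carry systematic names only. YBL100W-B was 7.15-fold, YER138C 5.81-fold, YAR009C 5.57-fold and YCL019W 5.30-fold lower. Whether the probes of these 4 share signal with each other or with related sequences was not examined. Their 4 sizes may therefore not be separate results.

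**Figure D2:**
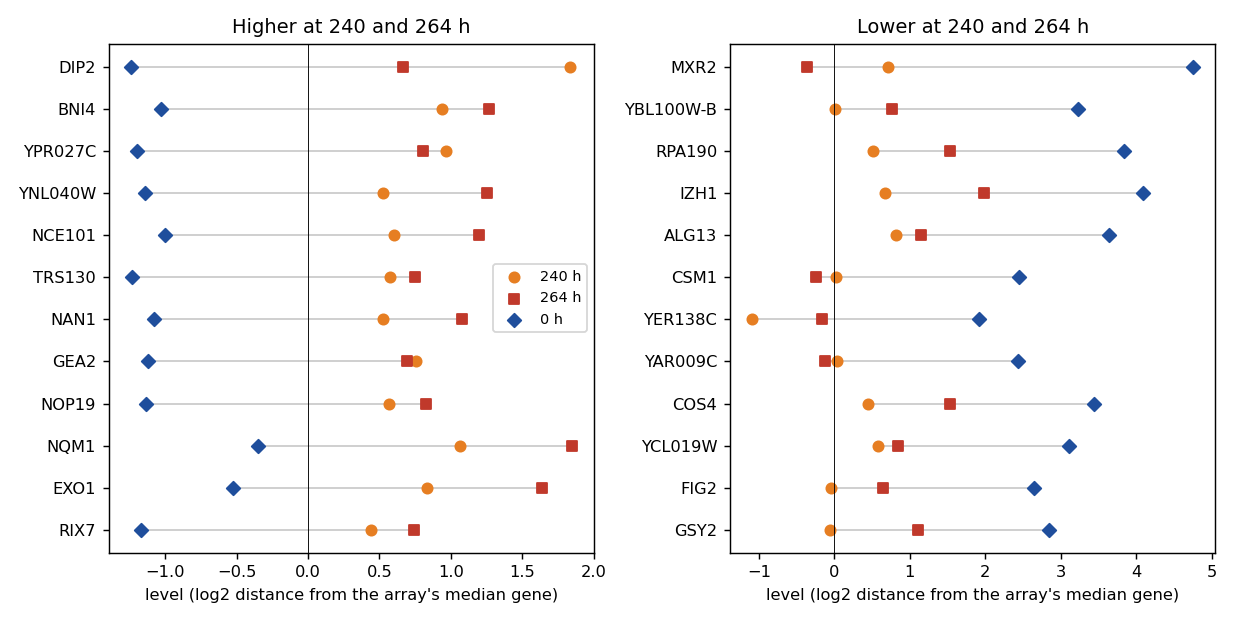
Levels (x axis, log2 intensity minus the array's median) at 240 h, 264 h and 0 h of the 12 genes with the largest mean difference in each direction, among genes past 2-fold in both normalizations and above the 5th percentile on all 3 arrays. The pitching yeast lies left of both final arrays in the left panel and right of both in the right panel.

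Some of the sugar uptake genes were lower on the final days. Of 20 hexose transporter and sensor genes 6 were past 2-fold lower at both times and 0 higher (4.12% of all genes were lower), 3 of them lower in both normalizations, with a list median of -0.84 against -0.04 over all genes. HXT3, a low-affinity glucose transporter, stood at 0.71 at 240 h and 0.64 at 264 h, against 2.73 at 0 h (4.16-fold lower; -2.13 quantile-normalized). HXT2, a transporter of higher affinity, was at -0.87 at 240 h and -0.91 at 264 h, against 0.64 at 0 h (2.90-fold lower). For both the final arrays differed little from each other.

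The near-identical high-affinity transporters HXT6 and HXT7, whose probes can share signal, were 4.64- and 3.02-fold lower. After quantile normalization the difference of HXT7 was -0.09, that of HXT6 -1.55 and that of HXT4 -0.95 (against -1.82 median-centred), none of them past 2-fold at both times. GAL2, the galactose permease, was below the 5th percentile of the 240 h array, so its size is left out. HXT1, a low-affinity transporter, was at 2.37 at 240 h and 1.96 at 264 h, against 3.09 at 0 h, below 0 h at both times but with a difference of 0.65 after quantile normalization. HXT5 was at 0.36 at 240 h and 1.49 at 264 h, against 2.0 at 0 h, and neither gene was past 2-fold at both times.

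Of 11 measured maltose genes 4 were lower and 0 higher (36.4%), and all 4 were lower in both normalizations. MAL32, a maltase, stood at 0.54 at 240 h and 0.90 at 264 h, against 2.28 at 0 h (2.95-fold lower). IMA1, an isomaltase, was 2.95-fold lower, MAL33, a maltose regulator, 3.03-fold and MPH2, an alpha-glucoside permease, 2.07-fold. The maltose permease MAL31 was at 1.31 at 240 h and -0.12 at 264 h, against 1.60 at 0 h, so that it was past 2-fold at 264 h alone. MAL12, a second maltase with a very similar sequence, was at 0.82 at 240 h and -0.75 at 264 h, against -0.53 at 0 h, higher at 240 h and not at 264 h. The permease MAL11 was at 0.25 at 240 h and -0.26 at 264 h, against 0.48 at 0 h.

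Glycolysis and ethanol formation had the lowest list median of the 46 lists, -1.28 (-1.39 at 240 h and -0.90 at 264 h). All 24 genes had a mean difference below 0, and 22 of them were below 0 h at both times (34.3% of all genes were). Past 2-fold at both times were 9 genes (37.5%), and 0 were higher. After quantile normalization the list median was -0.88 with 5 genes lower, and 3 genes were lower in both, namely GLK1, ADH3 and PDC5.

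GLK1, the glucokinase, was at 0.41 at 240 h and 1.51 at 264 h, against 2.99 at 0 h (4.08-fold lower). ADH3, a mitochondrial alcohol dehydrogenase, was at 0.30 at 240 h and 0.09 at 264 h, against 1.63 at 0 h (2.71-fold lower). PDC5, a minor pyruvate decarboxylase, lay below the 5th percentile at 240 h. These 3 passed the rule in both normalizations, unlike the brightest enzymes of the list.

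TDH3, the main glyceraldehyde phosphate dehydrogenase, was at 1.36 at 240 h and 2.62 at 264 h, against 3.94 at 0 h. TDH1, a paralogue whose probe can share its signal, was at 1.79 at 240 h and 2.96 at 264 h, against 4.37 at 0 h. Their mean differences of -1.95 and -2.0 were -0.75 and -0.25 after quantile normalization. ENO1, an enolase, differed by -1.79, and by -0.75 after quantile normalization. These genes lie at the bright end of the arrays, and the 240 h array had the narrowest signal; its part in these differences was not tested. HXK1, a hexokinase, was 3.32-fold lower and ADH1, which makes the ethanol, 2.62-fold, neither of them past 2-fold at both times once quantile-normalized. 

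Other enzymes of the pathway were short of the rule at 264 h. PDC1, the main pyruvate decarboxylase, was at -0.28 at 240 h and 1.29 at 264 h, against 1.5 at 0 h. FBA1, the aldolase, was at 0.13 at 240 h and 1.65 at 264 h, against 2.28 at 0 h. PGK1, the phosphoglycerate kinase, was at 0.71 at 240 h and 1.37 at 264 h, against 2.01 at 0 h. In each of these 3 the 264 h array lay within 2-fold of the pitching yeast and the 240 h array further below it.

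Glycogen, a branched glucose store, and trehalose, a stress-protecting sugar, are the yeast's main reserves. Of 19 measured genes 7 were lower and 0 higher (36.8%), while 6 had a mean difference above 0, with a list median of -0.90 and of -0.80 after quantile normalization, where 5 were lower. In both normalizations 4 were lower. These were GSY2, PGM2, NTH1 and GAC1.

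PGM2, the main phosphoglucomutase, stood at 0.19 at 240 h and 1.35 at 264 h, against 2.71 at 0 h (3.82-fold lower). GAC1, the phosphatase subunit that activates glycogen synthase, was at 0.65 at 240 h and 0.78 at 264 h, against 2.01 at 0 h. NTH1, the trehalase that breaks trehalose down, was at 0.14 at 240 h and -0.30 at 264 h, against 1.22 at 0 h (2.46-fold lower). NTH1 was the only dedicated breakdown enzyme among the lower genes of this list, and it acts on trehalose. GPH1, the glycogen phosphorylase gene, had no named probe. GLC3, the glycogen branching enzyme, was 4.84-fold lower in median-centred values (1.55 at 240 h and 2.62 at 264 h, against 4.36 at 0 h), but differed by -0.65 after quantile normalization. TPS1, the trehalose phosphate synthase, differed by -1.55, and by -0.92 after quantile normalization, where it did not pass the rule.

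**Figure D3:**
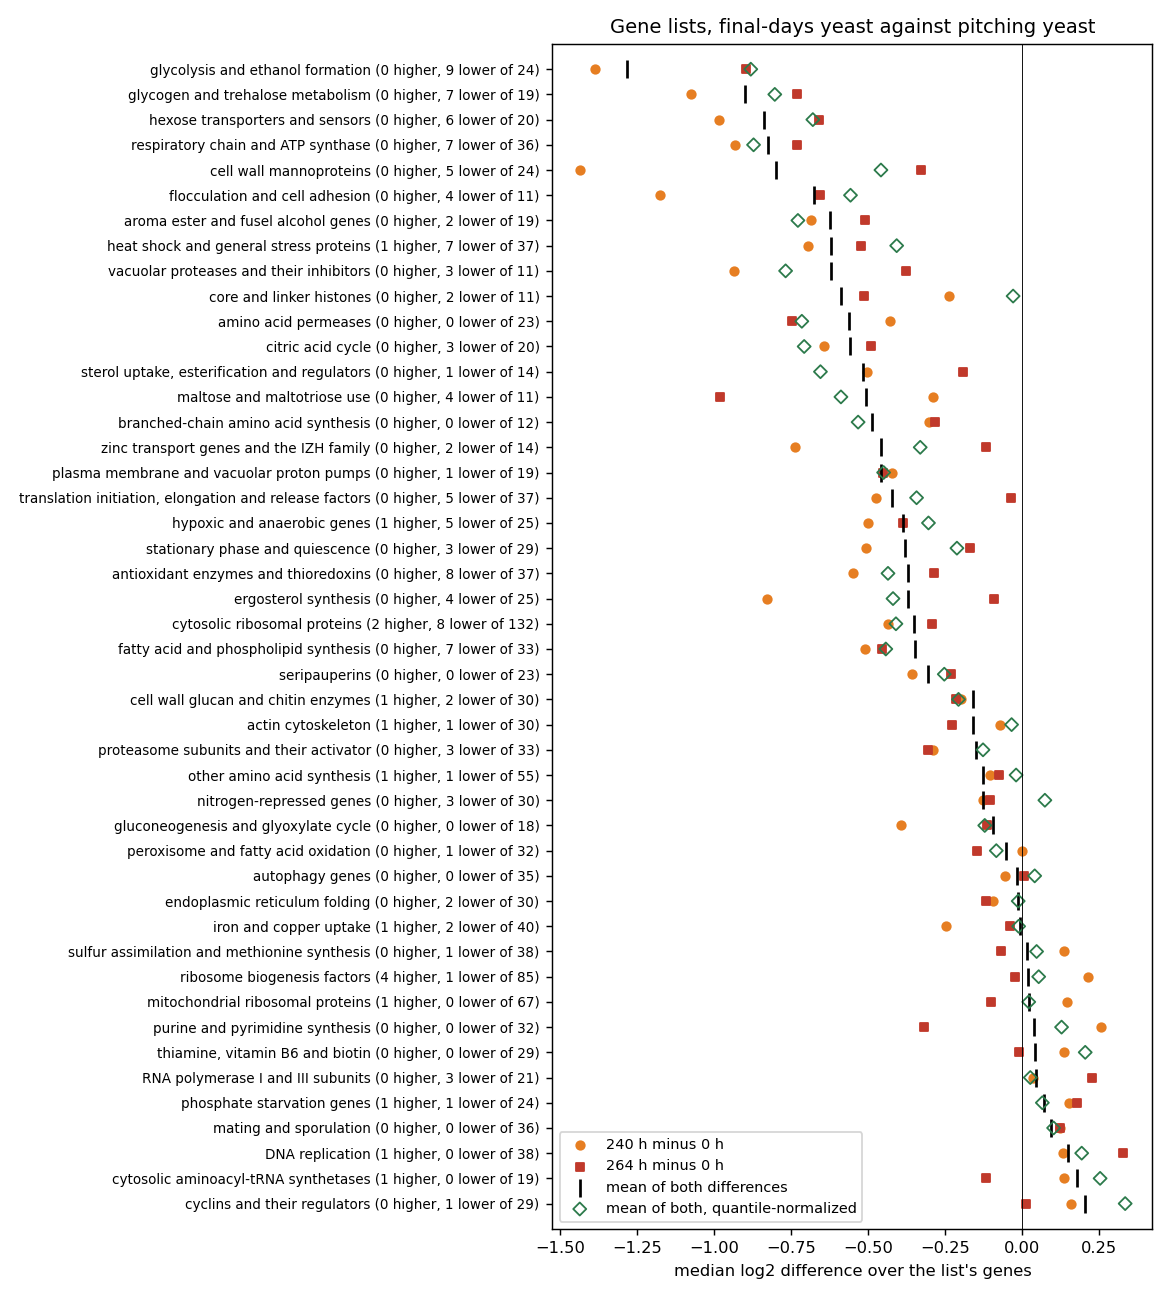
Median log2 difference over the genes of each of the 46 lists (x axis), at 240 h (circles) and 264 h (squares) against 0 h, with the mean of both (bars) and its quantile-normalized value (diamonds). Labels give the genes past 2-fold at both times; 31 lists held more lower than higher genes, and glycolysis had the lowest median.

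Of 36 respiratory chain and ATP synthase genes 7 were lower and 0 higher (19.4%), 5 of them lower in both normalizations. Below 0 h at both final times were 27 of the 36, against 34.3% of all genes. The list median was -0.82, and -0.87 after quantile normalization. HAP4, the activating subunit of the complex that switches on respiratory genes, was at 0.63 at 240 h and 0.59 at 264 h, against 2.62 at 0 h (4.03-fold lower; -2.14 quantile-normalized). QCR6, a subunit of the cytochrome bc1 complex, was at -0.03 at 240 h and -0.25 at 264 h, against 1.52 at 0 h (3.16-fold lower). ATP1, of the ATP synthase, was 2.38-fold lower, and QCR7, also of the bc1 complex, lay below the 5th percentile at 240 h. CYC1, cytochrome c, was at 0.64 at 240 h and 1.51 at 264 h, against 2.22 at 0 h, short of the rule at 264 h.

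In the citric acid cycle 3 of 20 genes were lower (15.0%), in both normalizations. CIT2, the peroxisomal citrate synthase, stood at 0.20 at 240 h and 0.95 at 264 h, against 2.58 at 0 h (4.01-fold lower). CIT1, its mitochondrial counterpart, was at 0.09 at 240 h and 0.99 at 264 h, against 2.07 at 0 h (2.89-fold lower). KGD1, of the oxoglutarate dehydrogenase, was at -0.98 at 240 h and -0.06 at 264 h, against 1.40 at 0 h (3.77-fold lower). All 3 were lower at 240 h than at 264 h. Gluconeogenesis and the glyoxylate cycle make sugar from ethanol or acetate. None of the 18 genes on their list was past 2-fold at both times in either direction (list median -0.10, 11 means below 0 and 7 above). CIT2, given above, was counted with the citric acid cycle and not on this list. ICL1, the isocitrate lyase, was at 0.38 at 240 h and 0.37 at 264 h, against 0.06 at 0 h. PCK1, which turns oxaloacetate into phosphoenolpyruvate, was at -0.21 at 240 h and 0.31 at 264 h, against 0.10 at 0 h. FBP1, the fructose bisphosphatase, was at -0.26 at 240 h and -0.18 at 264 h, against 0.22 at 0 h. These 3 lay within 2-fold of the pitching yeast on both final arrays. ADH2, an alcohol dehydrogenase on the same list, was at 1.36 at 240 h and 1.03 at 264 h, against 2.34 at 0 h. It was past 2-fold at 264 h alone, and its mean difference of -1.14 was -0.57 after quantile normalization. Of 32 peroxisome and fatty acid oxidation genes 1 was lower (3.12%), FAA1, a fatty acid activating enzyme (3.51-fold).

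Sterol and lipid genes were lower in part. Ergosterol, the yeast's main sterol, needs oxygen for its synthesis. Of 25 genes 4 were lower and 0 higher (16.0%), and the list median was -0.37, with -0.83 at 240 h and -0.09 at 264 h. ERG5, a desaturase of the last steps, was at 0.02 at 240 h and 0.57 at 264 h, against 2.61 at 0 h (4.96-fold lower; -2.66 quantile-normalized). ERG9, the squalene synthase, was at 0.37 at 240 h and 0.96 at 264 h, against 2.73 at 0 h (4.18-fold lower). ERG11, the lanosterol demethylase, was at 0.33 at 240 h and 1.03 at 264 h, against 2.72 at 0 h (4.12-fold lower). These 3 were lower in both normalizations and closer to 0 h at 264 h than at 240 h. ERG1, the squalene epoxidase, differed by -1.18 and was short of the rule at 240 h after quantile normalization. ERG3 stood at -0.22 at 240 h and 1.24 at 264 h, against 1.02 at 0 h, so that its 2 final differences had opposite signs.

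ARE2, which esterifies sterols for storage, was at -0.17 at 240 h and 0.71 at 264 h, against 2.47 at 0 h (4.59-fold lower) and was the 1 gene of 14 sterol uptake, esterification and regulator genes past the rule (7.14%). Fatty acid and phospholipid synthesis had 7 of 33 genes lower and 0 higher (21.2%), 4 of them in both normalizations. ITR1, the inositol permease, was at -0.97 at 240 h and -0.64 at 264 h, against 1.27 at 0 h (4.23-fold lower). INO1, the inositol phosphate synthase, was at -0.03 at 240 h and 1.68 at 264 h, against 3.05 at 0 h, and was short of the rule at 264 h after quantile normalization.

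OLE1, the fatty acid desaturase and an oxygen-requiring enzyme, had the largest median-centred difference after MXR2 among genes above the 5th percentile on all 3 arrays. Its intensity was 8072 at 240 h and 36388 at 264 h, against 144857 at 0 h, and its levels were 2.27 at 240 h and 3.81 at 264 h, against 6.10 at 0 h (8.36-fold lower). After quantile normalization the difference was -0.38. The 9 other arrays ran from 2.42 to 7.5. Among the 25 measured genes on the hypoxic and anaerobic list 5 were lower (20%) and 1 higher (4%), against 4.12% and 2.39% of all genes. The higher one, OSM1, was dim at 0 h, and the lower ones were OLE1, TIR1, CPR1, FET4 and CYC7. None of these 5 was past 2-fold at both times after quantile normalization. There CYC7, a cytochrome c isoform, had the opposite sign (0.30, against -1.11). The difference of TIR1, a cell wall protein of anaerobic cells, was -0.30 (against -1.88). CPR1 is the S. cerevisiae name of a cyclophilin gene, so its place on this list is doubtful. The seripauperins, a family of near-identical wall protein genes, had 0 of 23 past the rule either way (list median -0.31). The anaerobic wall protein gene DAN1 was at -1.06 at 240 h and 0.65 at 264 h, against 0.42 at 0 h, on either side of the pitching yeast. HEM13, of heme synthesis, was at 0.60 at 240 h and -0.13 at 264 h, against 0.85 at 0 h.

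Stress and protein quality genes were lower in part. Of 37 heat shock and general stress genes 7 were lower (18.9%) and 1 higher (2.70%), with a list median of -0.62. SSA1, a cytosolic Hsp70 chaperone, was at -0.31 at 240 h and 0.42 at 264 h, against 1.71 at 0 h (3.15-fold lower). HSC82, an Hsp90 chaperone, was at 0.23 at 240 h and 0.88 at 264 h, against 2.10 at 0 h (2.91-fold lower). CTT1, the cytosolic catalase, was at 0.23 at 240 h and -0.42 at 264 h, against 1.58 at 0 h (3.21-fold lower). These were lower in both normalizations. HSP30, a stress protein of the plasma membrane, had the largest median-centred difference of the list (1.58 at 240 h and 3.08 at 264 h, against 4.34 at 0 h), but differed by -0.25 after quantile normalization. HSP26, a small heat shock protein, was at 1.36 at 240 h and 2.96 at 264 h, against 3.70 at 0 h, a mean difference of -1.53, and of -0.27 after quantile normalization. HSP12 was at 1.52 at 240 h and 1.12 at 264 h, against 1.41 at 0 h, and its difference of -0.10 was 0.63 after quantile normalization. HSP104, a disaggregase, was at 0.46 at 240 h and 0.09 at 264 h, against 0.80 at 0 h. None of these 3 was past the rule. The 1 higher gene, SSB1, lay below the 5th percentile at 0 h.

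Antioxidant enzymes and thioredoxins had 8 of 37 genes lower and 0 higher (21.6%), 5 of them in both normalizations. Beside MXR2 and CTT1 these were PRX1, a mitochondrial peroxiredoxin (2.26-fold lower), and GRX2 and TRX1, which were below the 5th percentile on both final arrays. AHP1, another peroxiredoxin, differed by -1.72, and by -1.23 after quantile normalization, where it was short of the rule at 264 h. The mitochondrial superoxide dismutase SOD2 was at 0.97 at 240 h and 0.27 at 264 h, against 1.12 at 0 h. The list median was -0.37, so MXR2 lay far below the middle of its list.

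Of 29 stationary phase genes 3 were lower and 0 higher (10.3%), and 1 of them, MOH1, in both normalizations (3.89-fold lower). SPI1, a wall protein of stationary phase, was 2.30-fold lower in median-centred values and higher by 0.50 after quantile normalization. SPG1 was at 1.90 at 240 h and 1.80 at 264 h, against 2.41 at 0 h, but its mean difference of -0.56 was 0.86 after quantile normalization. RPN4, the activator of proteasome genes, stood at -0.68 at 240 h and 0.17 at 264 h, against 2.02 at 0 h (4.85-fold lower; -2.76 quantile-normalized), while 2 of the 32 other genes of the proteasome list passed the rule. They were RPN8 (2.42-fold lower) and RPT6, which was dim at 240 h. The list median was -0.15.

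The vacuolar protease list had 3 of 11 genes lower (27.3%). PRB1, a vacuolar serine protease, was at 0.57 at 240 h and 0.78 at 264 h, against 2.67 at 0 h (3.99-fold lower; -2.14 quantile-normalized). CPS1, a carboxypeptidase, was 3.49-fold lower, and PRC1, carboxypeptidase Y, was at 0.75 at 240 h and 1.86 at 264 h, against 3.32 at 0 h, short of the rule at 264 h after quantile normalization. PEP4, the protease that activates the others, was at -0.26 at 240 h and 2.19 at 264 h, against 2.46 at 0 h, close to the pitching yeast at 264 h and far below it at 240 h. None of 35 autophagy genes passed the rule in either direction. Of 30 endoplasmic reticulum folding genes 2 were lower (6.67%, against 4.12% of all genes). They were ERO1, the oxidase of disulfide formation (2.80-fold, in both normalizations), and KAR2, the Hsp70 of that compartment (-1.41, and -1.21 quantile-normalized, short of the rule at 240 h).

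Of 132 cytosolic ribosomal protein genes 8 were lower (6.06%) and 2 higher (1.52%), close to the shares of all genes, with a list median of -0.35. In both normalizations 6 were lower and 2 higher. Below 0 h at both times were 71 of the 132 and above it 15, against 34.3% and 26.9% of all genes. RPL23A was at -0.46 at 240 h and -1.33 at 264 h, against 1.07 at 0 h (3.90-fold lower). RPL22B was at 0.64 at 240 h and 1.12 at 264 h, against -0.88 at 0 h (3.38-fold higher). RPL26B differed by -2.15, and by -1.0 after quantile normalization, where it was just short of the rule at 264 h. Pairs of ribosomal protein genes are near-identical, and their probes can share signal. Of 37 translation factors 5 were lower (13.5%), 3 of them in both normalizations. TIF1, an initiation factor helicase, was 3.34-fold lower and SUP45, the release factor, 2.60-fold lower. The elongation factor gene TEF2 was 2.94-fold lower in median-centred values, with a difference of 0.01 after quantile normalization.

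Ribosome biogenesis was among the 4 lists with more higher than lower genes, 4 higher (4.71%, against 2.39% of all genes) and 1 lower of 85, with a median of 0.02. DIP2 was the 1 of the 4 measured above the 5th percentile at 0 h, and only just, the others being DBP9, NOP4 and RRP5. The list does not hold every gene of this process: NAN1 and NOP19, given below, were higher and not on it. The other 3 lists with more higher than lower genes were mitochondrial ribosomal proteins (67 genes), aminoacyl-tRNA synthetases (19) and DNA replication (38). Each had 1 higher gene and 0 lower. FRS1, of the phenylalanine synthetase, was 2.13-fold higher, while MRP51 and CDC45 lay below the 5th percentile at 0 h. The RNA polymerase I and III list had 3 of 21 lower. Beside RPA190 these were RPA14 (2.88-fold) and RPB5 (2.35-fold).

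Cell surface genes were lower in part. Of 11 flocculation and adhesion genes 4 were lower and 0 higher (36.4%). FLO1, a flocculin that binds cells together, was at 0.48 at 240 h and 0.57 at 264 h, against 1.78 at 0 h (2.39-fold lower; -1.43 quantile-normalized). FLO9, a close relative, was 2.67-fold lower. FLO5, another, was at 0.24 at 240 h and 0.93 at 264 h, against 1.58 at 0 h, short of the rule at 264 h. The flocculin genes are alike in sequence and can share signal.

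Cell wall mannoproteins had 5 of 24 lower and 0 higher (20.8%), and 0 past the rule in either direction after quantile normalization. SED1, a major wall protein of stationary cells, differed by -2.33 (2.32 at 240 h and 3.48 at 264 h, against 5.23 at 0 h), and by -0.28 after quantile normalization. The list median was -1.44 at 240 h, -0.33 at 264 h, and -0.46 over both after quantile normalization. Among 30 glucan and chitin enzymes 2 were lower (6.67%, against 4.12% of all genes), SCW4 (2.98-fold) and CHS1 (2.09-fold). DSE4, a glucanase of cell separation, was 2.54-fold higher and the 1 higher gene (3.33%, against 2.39%).

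Of 11 histone genes 2 were lower (18.2%, against 4.12% of all genes), HHT1 (3.06-fold) and HHF1 (2.18-fold). Each has a near-identical copy that can share its signal. The histone list median of -0.59 was -0.03 after quantile normalization. The cyclin list had 1 of 29 genes lower (3.45%), CKS1, a subunit of the cyclin-dependent kinase (3.19-fold), with a median of 0.20. None of the 36 genes on the mating and sporulation list passed the rule. That list does not hold every such gene: FIG2, the adhesin of mating cells, was counted with the flocculation genes. Of 30 actin genes 1 was higher (BNI1, dim at 0 h) and 1 lower (CRN1, dim at 240 h), 3.33% each way. On the proton pump list of 19 genes 1 was lower (5.26%), the plasma membrane stress protein gene HSP30. HSP30 is not itself a pump, and it differed by -0.25 after quantile normalization.

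Counts in the nitrogen and amino acid lists stand beside 4.12% lower and 2.39% higher over all genes. None of 23 amino acid permeases, 12 branched-chain synthesis genes and 32 purine and pyrimidine synthesis genes passed the rule in median-centred values. The permease median was -0.56. Below 0 h at both times were 14 of the 23 permease genes (34.3% of all genes were), and 3 genes were past the rule after quantile normalization. Other amino acid synthesis had 1 gene higher (LYS9, dim at 0 h) and 1 lower (SER2, dim at 240 h) of 55. In sulfur assimilation 1 of 38 was lower, SAM2, an S-adenosylmethionine synthetase, at 1.03 at 240 h and 1.38 at 264 h, against 2.72 at 0 h (2.86-fold lower). MET6, the methionine synthase, was at 0.55 at 240 h and -0.06 at 264 h, against 0.39 at 0 h. Of 30 nitrogen-repressed genes 3 were lower (10%), in both normalizations. PUT1, the proline oxidase, was at -0.68 at 240 h and -0.30 at 264 h, against 1.63 at 0 h (4.34-fold lower). GDH2, which releases ammonia from glutamate, was 2.54-fold lower, and the third was CPS1. GAP1, the general amino acid permease, was at -0.06 at 240 h and 0.08 at 264 h, against -0.15 at 0 h.

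Among metal genes ZRT1, the high-affinity zinc transporter, was at 0.55 at 240 h and 0.80 at 264 h, against 2.57 at 0 h (3.71-fold lower; -2.07 quantile-normalized), and with IZH1 made 2 of 14 zinc genes lower (14.3%). IZH2 was at 1.39 at 240 h and 3.29 at 264 h, against 3.73 at 0 h, past 2-fold at 240 h alone, with a mean difference of -1.39, and of -0.19 after quantile normalization. Of 40 iron and copper genes 2 were lower (5%) and 1 higher (2.5%), near the 4.12% and 2.39% of all genes. The lower ones were ARN1, a siderophore transporter (2.72-fold), and FET4, a metal transporter (2.68-fold). FET4 was just short of the rule at 264 h after quantile normalization (-0.96). The higher one, FRE8, was dim at 0 h. None of 29 thiamine, vitamin B6 and biotin genes passed. Of 24 phosphate genes 1 was higher, VTC1, of the polyphosphate polymerase (2.34-fold), and 1 lower, PHO8, which was dim on both final arrays. Of 19 aroma ester and fusel alcohol genes 2 were lower, ADH1 and PDC5. ATF1, the main acetate ester synthase, was at -0.08 at 240 h and -0.05 at 264 h, against 0.56 at 0 h. BAT2, a branched-chain transaminase, was at -0.16 at 240 h and 0.76 at 264 h, against 1.02 at 0 h. Neither was past the rule.

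Many of the higher genes were dim in the pitching yeast. Of the 131, 63 lay below the 5th percentile of named genes on the 0 h array, a level of -1.25. The background there was unknown, so their sizes are left out. The other 68 lay above the 5th percentile on all 3 arrays. Their largest difference was in DIP2, a component of the complex that processes small-subunit ribosomal RNA. Its intensity was 5970 at 240 h and 4124 at 264 h, against 891 at 0 h, and its level 1.83 at 240 h and 0.67 at 264 h, against -1.24 at 0 h (5.63-fold higher). The 0 h level was just above the 5th percentile, so this size rests on a nearly dim value. DIP2 varied across the series, from -0.98 to 4.32 on the 9 other arrays.

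BNI4, which anchors chitin synthase at the bud neck, was at 0.94 at 240 h and 1.27 at 264 h, against -1.03 at 0 h (4.39-fold higher), and no other array was above 0.53. EXO1, a DNA exonuclease, was at 0.84 at 240 h and 1.64 at 264 h, against -0.53 at 0 h (3.40-fold higher), above its highest other level of 0.69 on both final arrays. TRS130, of a vesicle tethering complex, was at 0.57 at 240 h and 0.75 at 264 h, against -1.23 at 0 h (3.71-fold higher), with a highest other level of 0.11. At 0 h TRS130 too was just above the 5th percentile (-1.25). NQM1, a transaldolase paralogue, was at 1.06 at 240 h and 1.85 at 264 h, against -0.35 at 0 h (3.49-fold higher). In BNI4, EXO1 and TRS130 both final arrays stood above all the others.

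GEA2, an exchange factor of vesicle transport, was 3.60-fold higher and NCE101, linked to secretion of proteins without a signal sequence, 3.74-fold higher. NAN1, NOP19 and RIX7, all of ribosome assembly, were 3.68-, 3.56- and 3.39-fold higher. YPR027C (4.24-fold) and YNL040W (4.09-fold), which carry systematic names only, completed the 12. For these 12 genes the quantile-normalized differences were larger, from 2.17 in RIX7 to 4.0 in DIP2, against 1.76 and 2.49 median-centred.

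Of 59 brewing and metabolic genes chosen for their roles, with earlier results of these data known, 23 were lower (39.0%, against 4.12% of all genes), 0 were higher and 36 did not pass the rule. This count is a description only. Several had final arrays on either side of the pitching yeast. MET3, the ATP sulfurylase, was at 0.92 at 240 h and -0.69 at 264 h, against -0.14 at 0 h. PHO84, a phosphate transporter, was at -0.79 at 240 h and 1.05 at 264 h, against 0.12 at 0 h. MEP2, an ammonium permease, was at 0.06 at 240 h and 1.35 at 264 h, against 0.57 at 0 h. For such genes the final days gave no common direction. The ester synthase gene ATF2 was dim at 264 and 0 h, and SSU1, the sulfite pump, and the metallothionein gene CUP1-1 were dim at 240 h.

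The position of the pitching yeast among all 12 arrays differed between the higher and the lower genes. In the 131 higher genes the median level was 0.22 at 240 h and 0.49 at 264 h, against -1.23 at 0 h, and the 9 other arrays lay between -0.78 (168 h) and 0.22 (96 h). The 0 h array was the lowest of the 12 for 66 of these genes (50.4%), against 5.12% of all genes with 12 values. In the 226 lower genes the median was 0.19 at 240 h and 0.58 at 264 h, against 1.93 at 0 h. The 9 other arrays lay between 0.70 (96 h) and 2.32 (168 h), so for this set both final arrays were below all the others. The 0 h array was the highest of the 12 for 36 of the 226 (15.9%), against 6.2% of all genes. The genes were selected for their values at 0, 240 and 264 h, so shares above those of all genes are in part built in. The same holds for the places of the 0 h and final arrays in these medians. No test is attached to these shares.

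**Figure D4:**
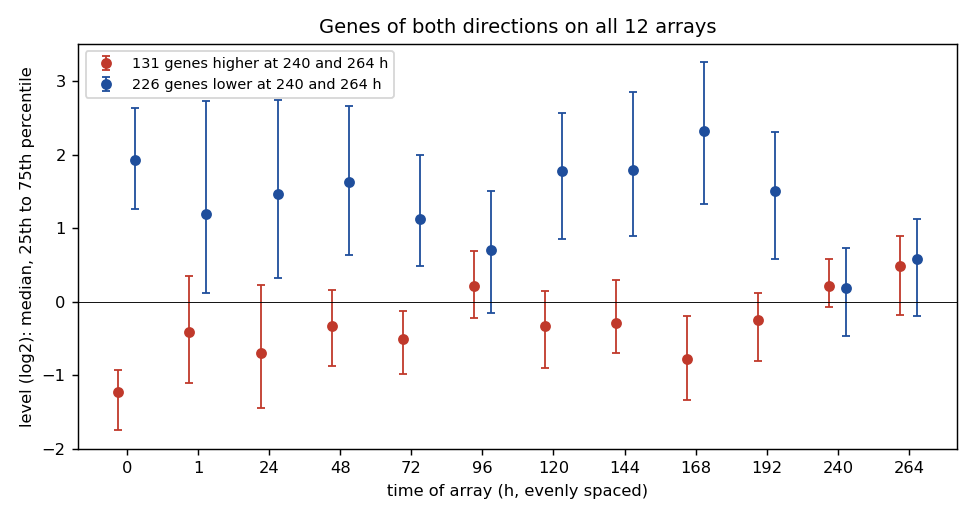
Median level with the 25th to 75th percentile (y axis, log2) of the 131 higher and the 226 lower genes on each of the 12 arrays (x axis, time in h, evenly spaced). The higher genes are lowest at 0 h (-1.23), and the lower genes are lowest at 240 h (0.19) and 264 h (0.58). Both sets were selected for their values at these times.

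Single genes showed several courses between the first and last arrays. MXR2 was high at 0 h alone. ERG5 was at 2.61 at 0 h, between 2.33 and 5.41 on the 9 others and lowest at 240 h (0.02). HAP4 was at 2.62 at 0 h, was at -0.09 at 24 h, at 2.80 at 168 h and was at 0.63 and 0.59 on the final arrays. HXT3 was at 2.73 at 0 h, at 3.59 at 168 h and 0.64 at 264 h. RPN4 was at 2.02 at 0 h, at -1.81 at 1 h and at 2.22 at 168 h. In ERG5, HAP4, HXT3 and RPN4 the 168 h level was thus above the 0 h level, and the final levels were below both.

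**Figure D5:**
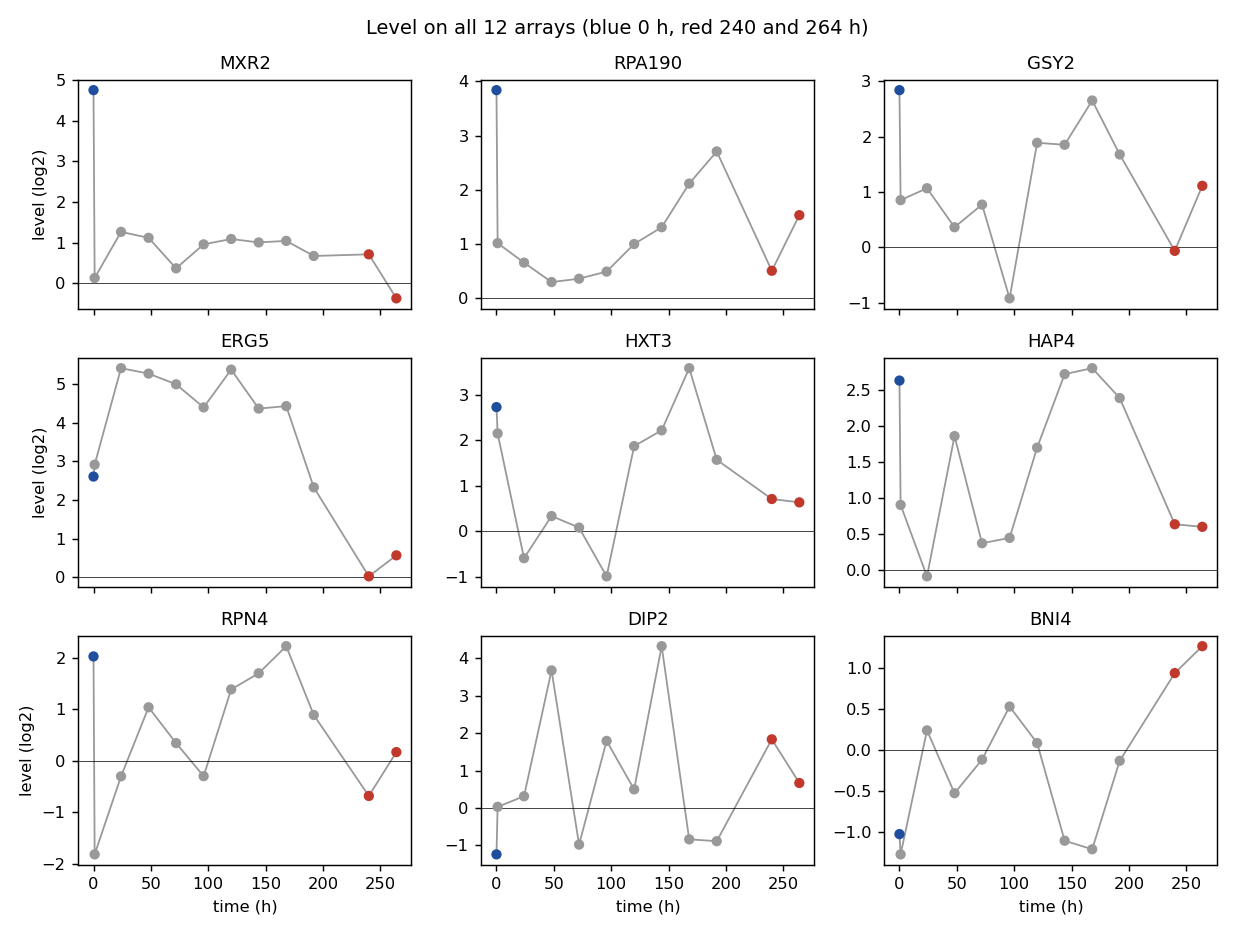
Level (y axis, log2 intensity minus the array's median, own scale in each panel) on all 12 arrays against time (x axis, h) of 9 genes picked after their values were seen. Blue marks 0 h and red 240 and 264 h; MXR2 is high at 0 h alone, while ERG5, HXT3, HAP4 and RPN4 are above their final levels at 168 h.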

How the data were processed

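One table of array intensities was used, with 12 columns that match the 12 labelled times. Its values are the deposited intensities on a linear scale. How the arrays were scanned, background-corrected or scaled, and their type, are not given in the sources used here. A single gene symbol was attached to 5523 of the 6084 probes, several symbols to 0 and none to 561. This left 5490 named genes, after averaging the probes of 32 symbols. The 3 intensities of 0 at 168 h were treated as missing.

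Log2 values were computed from the deposited intensities and centred on each array's median over named genes. Quantile normalization over the 12 arrays was the repeat (limma 3.58.1 in R 4.3.3; Python 3.11.15 with numpy 2.4.6, pandas 2.3.3 and matplotlib 3.10.9). A gene was called higher or lower at 1 log2 unit or more in the same direction at both 240 and 264 h against 0 h. No test was run, because 0 h had 1 array, and the number of arrays limits the precision. Signal below the 5th percentile of an array's named genes was treated as dim, and no size was given.

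Named were the 12 genes with the largest mean difference each way among those called in both normalizations and not dim on any of the 3 arrays, up to 4 called genes of each list with the largest difference, and 60 genes listed for their roles, of which 59 were measured. ADH3, CYC7, GAC1, HSC82, HXT7, PRX1, RRP5 and SSB1 lie outside this rule and were named after their values were seen. The genes and lists were chosen with earlier results of these data known. Alternatives were values as deposited, equal median absolute deviations, normexp with an offset of 50, a floor at the 5th percentile, the dimmest 25% of genes left out, a 4-fold threshold and each final array left out. Promoter sequences and motifs were not used here.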

Additional observations from a re-analysis of the deposited data

How the results depend on the processing

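The number of genes higher was 131, and 216 after quantile normalization, 212 with equal median absolute deviations, 453 with normexp, 77 without the dimmest 25% of genes and 8 at 4-fold. With 1 final array left out it was 602 to 617. The number of genes lower was 226, and 147 as deposited, 373 with equal median absolute deviations, 380 with normexp and 18 at 4-fold. With 1 final array left out it was 469 to 823. These higher counts follow from asking 1 array in place of both to pass. Of all calls 36.7% were higher, and 54.4% with normexp.

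The glycolysis list median of -1.28 was -0.88 after quantile normalization and -0.90 to -1.39 with 1 final array left out. The hexose transporter median of -0.84 was -1.08 without the dimmest 25% of genes, and the glycogen and trehalose median of -0.90 was -1.28 with normexp. Over all 46 lists, 44 medians had the same sign after quantile normalization, and 16 of the 46 differed from the median-centred value by more than the spread between the final arrays. Of 128 named genes past the rule, 125 had the same sign after quantile normalization. The exceptions were CYC7 (0.30, against -1.11), SPI1 (0.50, against -1.20) and TEF2 (0.012, against -1.55). The cause was not tested. No paired analysis was possible because the samples carry times and no replicate numbers.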
